A study of Mus musculus with 24 samples.

Results

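The genes described here encode Polycomb and Trithorax chromatin regulators, the protein complexes that write, read and erase histone marks at silent and active genes. They were taken from a list of 39 genes, matched to the array's gene symbols without regard to case. A probe matched 37 of them, of 17741 named genes in all. Rybp and Yaf2, whose products belong to variant forms of the first Polycomb complex, had no matching probe and were not analysed here. Where a gene had several probes, the brightest by its mean over the arrays stood for it.

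Bone marrow of 8 C57BL/6 mice was sorted, and the RNA was hybridised to 24 arrays with a single dye, 3 arrays per mouse. LSK cells, which carry no lineage markers but carry Sca1 and Kit and are enriched for blood stem cells, came from WT-labelled mice 1 and 3 and from KO-labelled mice 2 and 4. Myeloid progenitors, lineage-negative cells with Kit but without Sca1, came from WT-labelled mice 5 and 6 and from KO-labelled mice 7 and 8. The label KO stands for deletion of Bap1 throughout the body after tamoxifen injection, and the labels describe this injection for the mice of every group. The sources used here name neither the Cre line nor the ages and sexes of the mice. Every value below is on the authors' log2 scale, as the mean of a mouse's 3 arrays. Every change is a difference of group means, with 2 mice per group. Its standard error (SE) uses a spread that limma pools over the 4 groups and draws towards that of other probes. The SE of a gene's genotype change is therefore the same in both populations and is not the scatter of the compared mice alone. P-values come from limma fitted to all probes, adjusted by Benjamini-Hochberg over the whole array and called at 0.05.

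Polycomb repressive complex 2 (PRC2) places a repressive methyl mark on histone H3, and Polycomb repressive complex 1 (PRC1) places ubiquitin on histone H2A and compacts chromatin. BAP1 is the nuclear deubiquitinase that removes this ubiquitin. Trithorax-type complexes of the COMPASS family methylate another position of histone H3 at active genes, and demethylases of the KDM6 family erase the PRC2 mark. In blood stem cells these complexes are known for keeping the balance between self-renewal and differentiation, with Bmi1 and Ezh2 among the best-studied members.

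The genotype labels could not be checked from Bap1 itself. Its only probe read 11.55 and 11.45 in WT-labelled LSK mice against 11.96 and 11.84 in KO-labelled ones, and 11.54 and 11.59 against 11.67 and 11.85 in myeloid progenitors. The part of the transcript that this probe matches is not known, so a signal there says nothing about the deletion, and groups are named below by their labels. Across probes the median correlation was 0.994 for pairs of arrays from the same mouse (24 pairs) and 0.987 for pairs from different mice within a group (36 pairs). Kit read 12.76 to 13.49 in all 8 mice. Of 10 measured stem and progenitor markers, limma called 7 higher in WT-labelled LSK cells than in WT-labelled myeloid progenitors. This held for 8.08% of all named genes. Mecom was higher by 4.32 and Hlf by 3.88. Ly6a, which encodes Sca1, was not analysed here. The Y-linked gene Kdm5d read 7.88 in mouse 1 and 8.15 in mouse 5, both WT-labelled, and between 5.93 and 6.03 in the other 6 mice. B cell markers moved with the genotype labels, with Vpreb3 at -5.13 in LSK cells and -4.78 in myeloid progenitors. Limma called 8 of 11 lower in KO-labelled LSK cells and 6 of 11 in KO-labelled myeloid progenitors. Of all named genes it called 4.64% and 2.64% in either direction. The mean of the B cell list was 9.18 and 9.13 in WT-labelled against 7.17 and 6.93 in KO-labelled LSK mice, and 8.48 and 8.76 against 7.09 and 7.05 in myeloid progenitors. Of 12 granulocyte markers, limma called 3 higher in KO-labelled LSK cells and 1 in myeloid progenitors, against the same 4.64% and 2.64%. In such bulk samples a change in the share of a cell type and a change in RNA per cell cannot be told apart, and the part of these markers in the results on chromatin regulators was not tested.

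Calls between the genotype labels are given here for the 37 genes, beside the share called of all named genes. In LSK cells Pcgf2 rose and Phc3 fell in KO-labelled mice, and these were the 2 members called, against a background of 4.64% of all named genes (1.74% higher and 2.9% lower). In myeloid progenitors 0 of 37 members passed the threshold in limma, where the background was 2.64%. At an unadjusted p under 0.05 there were 5 members in myeloid progenitors, where 11.4% of all named genes passed, and 7 in LSK cells, where 16.6% did. A limma fit that kept the 24 arrays apart and took the mouse as a random block called 7 members in myeloid progenitors, against 9.18% of all named genes in that fit, and 8 in LSK cells, against 15.1%. Averaged over both populations, Pcgf2, Rbbp4 and Ring1 rose and Phc3 fell, so that 4 of 37 members were called against 7.95% of all named genes (3.09% higher and 4.85% lower). For the difference between the LSK and the myeloid progenitor change 0 members passed in limma, and the background was 0.062%. There were 4 members at an unadjusted p under 0.05 (all named genes 6.35%) and 0 called in that random-block fit (2.56%). The limma calls on mouse means lie near the background, and nothing is read from the members' number of calls.

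The median change over the members was 0.02 in LSK cells and 0.04 in myeloid progenitors, beside 0.02 and 0.00 over all named genes. Without regard to sign, the median change was 0.25 in LSK cells and 0.18 in myeloid progenitors, beside 0.14 and 0.11 over all named genes. The members' probes were mostly bright, 35 of 37 above the median probe mean of 7.20, and this was not adjusted for. Both KO-labelled LSK mice lay above both WT-labelled mice for 12 members and below them for 7. For the other 18 the genotypes overlapped. Genotypes of LSK mice did not overlap for 46.6% of all named genes. In myeloid progenitors KO-labelled mice lay above for 9 members, below for 7 and overlapped for 21, with a background of 41% of genes without overlap.

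**Figure D1:**
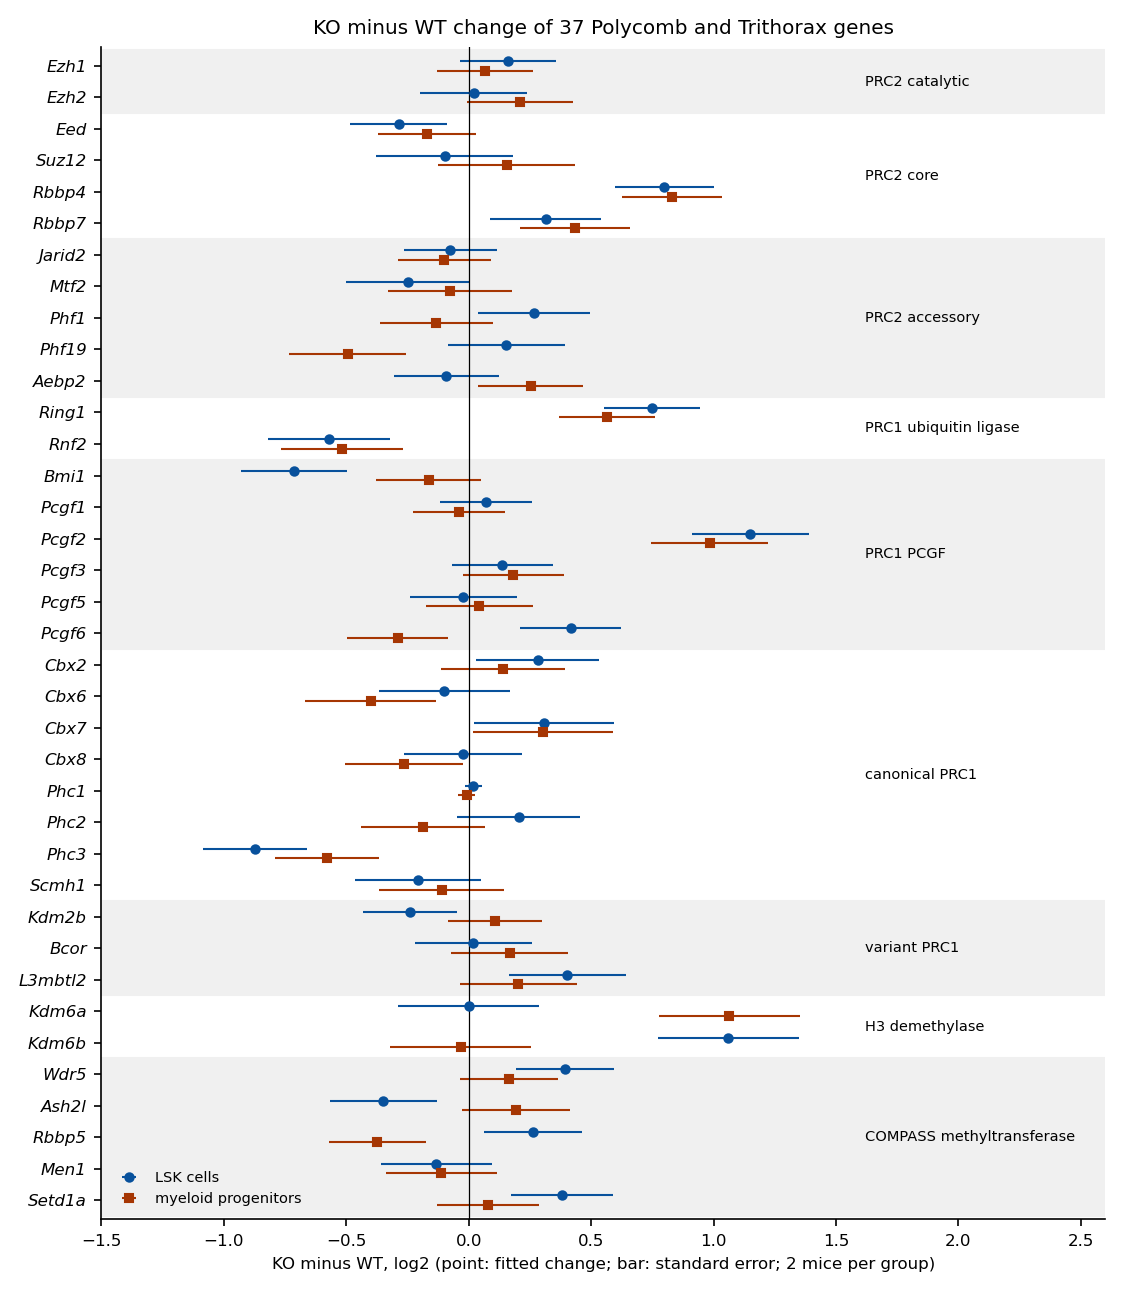
Change of each of the 37 genes between KO-labelled and WT-labelled mice in LSK cells (circles) and myeloid progenitors (squares), on the horizontal axis in log2 units, with SE as bars and genes grouped by complex. Pcgf2, Rbbp4 and Ring1 lie to the right and Phc3 and Rnf2 to the left in both populations, while Kdm6a and Kdm6b each stand apart in a single population.

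For 4 genes the brightest probe was called on average over both populations. The limits of each call, by mouse and by probe, are given below with the gene. The promoters of these 4 genes are shown here. Each is the stretch of 250 bases before the start site that RefSeq annotates, on GRCm38.p6, read 5′ to 3′ along the gene's own strand, which is the minus strand for all 4. Rbbp4 lies at chr4:129335371-129335620, Ring1 at chr17:34024681-34024930, Pcgf2 at chr11:97699649-97699898 and Phc3 at chr3:30969416-30969665. Capitals mark matches on either strand to the motifs spelled out after the sequences, and no marked stretch belongs to more than 1 motif.
Rbbp4: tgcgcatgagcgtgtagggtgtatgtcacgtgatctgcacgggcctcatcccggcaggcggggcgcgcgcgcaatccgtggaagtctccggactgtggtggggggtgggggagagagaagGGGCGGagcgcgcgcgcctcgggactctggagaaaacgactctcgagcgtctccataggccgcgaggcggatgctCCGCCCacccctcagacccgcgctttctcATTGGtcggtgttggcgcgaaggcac
Ring1: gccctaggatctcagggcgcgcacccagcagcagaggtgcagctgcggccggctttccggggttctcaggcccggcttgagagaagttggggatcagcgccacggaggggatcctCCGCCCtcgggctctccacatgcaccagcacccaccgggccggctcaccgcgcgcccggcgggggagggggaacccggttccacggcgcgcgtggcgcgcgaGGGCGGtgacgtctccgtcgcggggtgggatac
Pcgf2: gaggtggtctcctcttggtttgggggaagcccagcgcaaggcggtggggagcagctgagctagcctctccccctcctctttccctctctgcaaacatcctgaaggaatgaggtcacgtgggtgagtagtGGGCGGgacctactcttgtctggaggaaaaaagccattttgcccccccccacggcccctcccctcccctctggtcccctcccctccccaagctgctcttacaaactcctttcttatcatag
Phc3: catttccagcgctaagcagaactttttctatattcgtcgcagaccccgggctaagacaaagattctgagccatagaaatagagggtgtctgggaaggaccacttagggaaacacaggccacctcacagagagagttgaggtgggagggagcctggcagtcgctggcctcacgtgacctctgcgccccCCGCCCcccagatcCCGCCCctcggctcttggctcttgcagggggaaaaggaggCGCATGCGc

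The motifs searched were the GC box GGGCGG, the CCAAT box CCAAT, the NRF1 motif CGCATGCG, the E2F motifs TTTCCCGC or TTTGGCGC, the ETS motif CCGGAAG and the YY1 motif ATGGCGG. All 4 windows held a GC box, which Rbbp4, Ring1 and Phc3 held at 2 places. Across the 33 members with an entry in the promoter table, 23 windows (69.7%) held a GC box, and 32.7% of all 32851 windows did. The CCAAT box was found in Rbbp4 alone among the 4, in 11 of 33 members (33.3%) and in 33.8% of all windows. The NRF1 motif was found in Phc3 and in no other member (all windows 1.55%). E2F motifs were in 2 of 33 members, neither of them shown (all windows 1.3%), and the ETS and YY1 motifs were in 0 (all windows 6.91% and 2.21%). The median GC content was 64.8% in members and 52.4% in all windows, and the median number of CpG was 20 against 6. Within the 4, Pcgf2 had 5 CpG in its window, Phc3 12, and Ring1 and Rbbp4 30 each. Members have 1 window per gene, whereas all windows are every entry of the promoter table, not limited to 1 per gene or to genes on the array. The sets compared are therefore not alike. These are matches of letters and not measured sites.

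Among the catalytic subunits of PRC2, neither methyltransferase was called between the genotype labels. Ezh2, the main PRC2 methyltransferase of dividing cells, read 11.39 and 11.53 in WT-labelled and 11.39 and 11.57 in KO-labelled LSK mice. Its myeloid progenitor values were 12.34 and 11.79 in WT-labelled and 12.23 and 12.33 in KO-labelled mice. The genotypes overlapped in both populations, with changes of 0.02 ± 0.22 (SE, 95% interval -0.46 to 0.50) and 0.21 ± 0.22 (-0.27 to 0.69). Ezh1, the second PRC2 methyltransferase, known from cells that divide little, read 11.32 and 11.09 in WT-labelled and 11.44 and 11.29 in KO-labelled LSK mice. Myeloid progenitors gave 10.24 and 10.19 against 10.27 and 10.29. Its changes were 0.16 ± 0.20 (-0.27 to 0.59) and 0.07 ± 0.20 (-0.37 to 0.50), with overlapping LSK mice and, in myeloid progenitors, KO-labelled mice a small margin above.

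The PRC2 core subunits Eed and Suz12 were likewise not called. Eed, which binds the methyl mark and stimulates the enzyme, read 12.43 in both WT-labelled LSK mice and 12.05 and 12.23 in the KO-labelled ones. For myeloid progenitors the values were 12.90 and 12.43 against 12.54 and 12.45. Both KO-labelled LSK mice thus lay below both WT-labelled ones, at a change of -0.29 ± 0.20 (limma adjusted p = 0.564), and the myeloid progenitors overlapped at -0.17 ± 0.20. Suz12, the scaffold of the complex, read 14.03 and 13.86 against 13.52 and 14.17 in LSK cells, and 14.14 and 13.37 against 13.76 and 14.05 in myeloid progenitors. Its changes were -0.10 ± 0.28 and 0.16 ± 0.28.

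Rbbp4 was the core subunit that rose. RBBP4 is a histone-binding protein that PRC2 shares with other chromatin complexes, among them histone deacetylase complexes. Rbbp4 (probe mMC018333, chromosome 4) read 8.58 and 8.50 in WT-labelled LSK mice and 9.19 and 9.49 in KO-labelled ones. In myeloid progenitors its values were 8.45 and 8.58 against 9.30 and 9.40. All 4 KO-labelled mice lay above all 4 WT-labelled mice. The change was 0.80 ± 0.20 in LSK cells (1.74-fold, limma adjusted p = 0.0538) and 0.83 ± 0.20 in myeloid progenitors (1.78-fold, limma adjusted p = 0.0658), each short of the threshold. Averaged over both, Rbbp4 rose by 0.81 ± 0.14 (1.76-fold, 95% interval 0.50 to 1.13, limma adjusted p = 0.00566). It was called in each of the 8 fits that left out a mouse, with changes of 0.74 to 0.89. With mice 1 and 5 left out, which carry the Kdm5d signal and leave 1 WT-labelled mouse per population, the change was 0.80 and the adjusted p was 0.0607. Rbbp7, the X-linked relative of Rbbp4, had changes of 0.31 ± 0.23 and 0.43 ± 0.23, and its average of 0.37 ± 0.16 was not called (limma adjusted p = 0.235).

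None of the 5 accessory subunits of PRC2 was called (0 of 5 in limma, also 0 at an unadjusted p under 0.05 in either population). Jarid2 and Aebp2 belong to a form of PRC2 that binds ubiquitinated H2A, and their changes were -0.07 and -0.09 in LSK cells and -0.10 and 0.25 in myeloid progenitors. The Polycomb-like proteins Mtf2, Phf1 and Phf19 recruit the other form of PRC2 to CpG islands. Their changes ran from -0.25 (Mtf2) to 0.27 (Phf1) in LSK cells and from -0.49 (Phf19) to -0.08 (Mtf2) in myeloid progenitors. Phf19 had the largest of these, at 8.96 and 8.95 in KO-labelled against 9.30 and 9.59 in WT-labelled myeloid progenitors (SE 0.24, limma adjusted p = 0.51).

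Of the paralogous ubiquitin ligases of PRC1, Ring1 rose on average over both populations, and Rnf2, which was not called, had changes of the opposite sign. Ring1 encodes RING1A and Rnf2 encodes RING1B, the alternative enzymes that ubiquitinate histone H2A. Ring1 (probe PH_mM_0004583, chromosome 17) read 9.37 and 9.47 in WT-labelled LSK mice and 10.13 and 10.21 in KO-labelled ones. Its myeloid progenitor values were 8.58 and 8.65 against 9.14 and 9.22. The mice of a group lay close together, and KO-labelled mice lay above WT-labelled mice of their population without overlap. The change was 0.75 ± 0.20 in LSK cells (1.68-fold, limma adjusted p = 0.0613) and 0.56 ± 0.20 in myeloid progenitors (1.48-fold, limma adjusted p = 0.246). On average Ring1 rose by 0.66 ± 0.14 (1.58-fold, 95% interval 0.35 to 0.96, limma adjusted p = 0.0149). Leaving out mouse 1, 7 or 8 lost this call, at changes of 0.63, 0.67 and 0.64 and an adjusted p of up to 0.0849. It was also lost with mice 1 and 5 left out (0.61, adjusted p = 0.118) and with the Kdm5d value as a covariate (0.62, adjusted p = 0.0712). The genotypes overlapped at a second Ring1 probe, which read 8.89 and 8.91 in WT-labelled and 9.25 and 8.91 in KO-labelled LSK mice, and 8.95 and 9.25 against 8.87 and 9.18 in myeloid progenitors. Its average change was 0.05 ± 0.16, and with the mean of both probes the change was 0.35 (limma adjusted p = 0.164).

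Rnf2 read 10.97 and 10.40 in WT-labelled LSK mice and 9.99 and 10.24 in KO-labelled ones. Myeloid progenitors gave 10.80 and 10.40 against 10.15 and 10.01. KO-labelled mice lay below WT-labelled mice in both populations, at -0.57 ± 0.25 and -0.52 ± 0.25, while the WT-labelled mice of a population lay nearly as far apart as the genotypes. The average of -0.54 ± 0.18 (95% interval -0.93 to -0.16) was not called, with a limma adjusted p of 0.101. Mouse 1 moved the LSK value to -0.29 when left out, mouse 5 moved the myeloid progenitor value to -0.32, and with both left out the average was -0.30.

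Of the 6 PCGF subunits, which set the type of PRC1, Pcgf2 rose and the other 5 were not called. PCGF2, also known as MEL18, and its close relative BMI1 are the PCGF proteins of canonical PRC1. Pcgf2 (probe PH_mM_0003169, chromosome 11) read 8.49 and 8.29 in WT-labelled LSK mice and 9.85 and 9.24 in KO-labelled ones. For myeloid progenitors the values were 7.96 and 7.95 against 8.78 and 9.09. All 4 KO-labelled mice lay above all 4 WT-labelled mice. The rise in LSK cells was 1.15 ± 0.24 (2.22-fold, 95% interval 0.62 to 1.68, limma adjusted p = 0.0229), and it was no longer called without mouse 1, 2 or 3, at 1.25, 0.84 and 1.05 and an adjusted p of up to 0.115. It was also lost with mice 1 and 5 left out (adjusted p = 0.133), with the compared groups fitted alone (0.0632) and with eBayes without trend and robust (0.061). The change in myeloid progenitors was 0.98 ± 0.24 (1.98-fold, limma adjusted p = 0.0658). On average Pcgf2 rose by 1.07 ± 0.17 (2.09-fold, 95% interval 0.69 to 1.44, limma adjusted p = 0.00318), and this call was made in each of the 8 fits that left out a mouse. It was also made when mice 1 and 5 were left out together (1.12, adjusted p = 0.0373). The second Pcgf2 probe read 8.12 and 8.74 in WT-labelled and 8.73 and 8.58 in KO-labelled LSK mice, and 8.11 and 8.53 against 8.50 and 8.50 in myeloid progenitors. Its average change was 0.20 ± 0.17 (limma adjusted p = 0.638). With the mean of both probes the average rise was 0.63 and was called (limma adjusted p = 0.0243), while the LSK change was 0.69 and was not (adjusted p = 0.0979).

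Bmi1, the PCGF gene best known for stem cell self-renewal, read 10.53 and 10.15 in WT-labelled LSK mice and 9.67 and 9.58 in KO-labelled ones. In myeloid progenitors its values were 10.29 and 10.09 against 10.09 and 9.96. KO-labelled LSK mice lay below without overlap, at -0.72 ± 0.22 (95% interval -1.19 to -0.24, limma adjusted p = 0.103), which missed the threshold, and myeloid progenitors overlapped at -0.16 ± 0.22. The difference between these changes was -0.55 ± 0.31 and was not called. Of the PCGF subunits of variant PRC1, Pcgf1, Pcgf3 and Pcgf5 had changes of -0.04 to 0.18 in the 2 populations, none of them called. Pcgf6 read 9.82 and 9.59 against 10.19 and 10.06 in LSK cells and 10.27 and 10.50 against 10.08 and 10.11 in myeloid progenitors, above the WT-labelled mice in the former and below them in the latter.

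**Figure D2:**
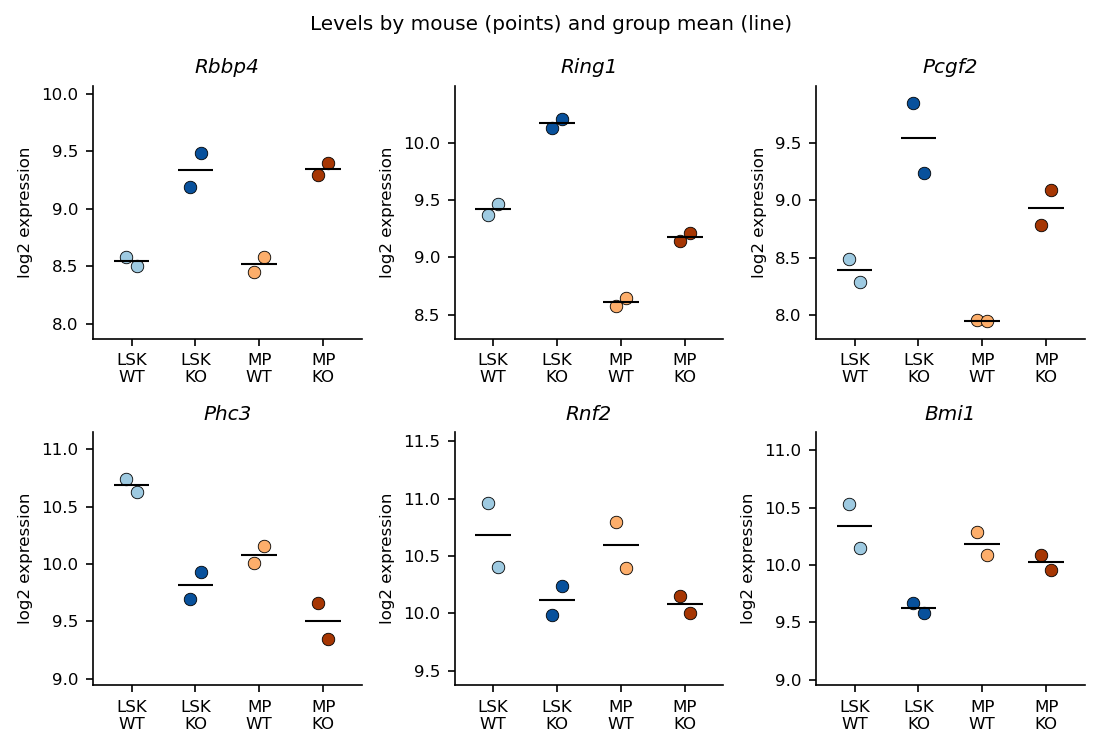
Log2 expression of Rbbp4, Ring1, Pcgf2, Phc3, Rnf2 and Bmi1 in each mouse (points) with group means (lines), for WT-labelled and KO-labelled LSK cells and myeloid progenitors (MP); each panel has its own vertical range, which does not start at 0. KO-labelled mice of a population lie wholly above WT-labelled ones for Rbbp4, Ring1 and Pcgf2 and wholly below for Phc3 and Rnf2, and Bmi1 shows this in LSK cells.

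Among the 8 canonical PRC1 subunits, Phc3 fell and the others were not called between the genotype labels. Phc3 encodes a polyhomeotic protein, whose SAM domain lets PRC1 complexes join into larger assemblies. Phc3 (probe PH_mM_0003029, chromosome 3) read 10.74 and 10.63 in WT-labelled LSK mice and 9.69 and 9.93 in KO-labelled ones. Its myeloid progenitor values were 10.01 and 10.16 against 9.66 and 9.35. All 4 KO-labelled mice lay below all 4 WT-labelled mice. Phc3 fell in LSK cells, with a change of -0.87 ± 0.21 (1.83-fold lower, 95% interval -1.34 to -0.40, limma adjusted p = 0.0461). That call lay close to the threshold: it was lost without mouse 1 (-0.82), mouse 2 (-0.75) or mouse 3 (-0.93), and without mouse 5, 6, 7 or 8, where the change stayed at -0.87, with an adjusted p of up to 0.256. It was also lost with mice 1 and 5 left out (adjusted p = 0.273) and with the Kdm5d value as a covariate (-0.88, adjusted p = 0.0904). The change in myeloid progenitors was -0.58 ± 0.21 (1.49-fold lower, limma adjusted p = 0.289). On average Phc3 fell, with a change of -0.73 ± 0.15 (1.65-fold lower, 95% interval -1.06 to -0.39, limma adjusted p = 0.0138). The average was no longer called without mouse 1 (-0.70) or mouse 8 (-0.65), with an adjusted p of up to 0.0897, nor with mice 1 and 5 left out (-0.73, adjusted p = 0.0922) or Kdm5d as a covariate (-0.74, adjusted p = 0.0557). A second Phc3 probe had an average change of -0.39 ± 0.27, with 8.71 and 8.27 against 7.63 and 8.14 in LSK cells and 8.94 and 7.69 against 8.16 and 8.12 in myeloid progenitors. A further Phc3 probe read 5.93 to 6.04 in every mouse, near the lowest values of the array, and carried no usable level. With the mean of all 3 probes the average change was -0.38 (adjusted p = 0.147).

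The chromodomain readers Cbx2, Cbx6, Cbx7 and Cbx8 bind the PRC2 mark and tether PRC1 to it. Their changes ran from -0.10 (Cbx6) to 0.31 (Cbx7) in LSK cells and from -0.40 (Cbx6) to 0.30 (Cbx7) in myeloid progenitors. The last values turned to 0.073 for Cbx6 without mouse 6 and to -0.043 for Cbx7 without mouse 5. Phc2, another polyhomeotic gene, had changes of 0.20 ± 0.25 and -0.19 ± 0.25, and Scmh1, a further SAM-domain subunit, of -0.21 ± 0.26 and -0.11 ± 0.26. Phc1 read 5.75 to 5.85 in all mice, beside a lowest value of 5.66 in the whole table, so that its probe gave no level to compare. The subunits of variant PRC1, Kdm2b, Bcor and L3mbtl2, whose products bring PRC1 to genes without needing the PRC2 mark, were 0 of 3 called. L3mbtl2 had the largest of their changes, at 0.40 ± 0.24 in LSK cells and 0.20 ± 0.24 in myeloid progenitors.

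The KDM6 demethylases, which erase the PRC2 mark, each had a change of 1.06 in a single population, and neither passed the threshold. Kdm6a, the X-linked gene of UTX, read 10.53 and 10.82 in WT-labelled and 11.63 and 11.84 in KO-labelled myeloid progenitors. In LSK cells it read 11.60 and 11.99 against 11.35 and 12.24. The myeloid progenitor mice did not overlap, at 1.06 ± 0.29 (2.09-fold, 95% interval 0.43 to 1.70, limma adjusted p = 0.103), and the LSK mice did, at 0.00 ± 0.29. Mouse 5 carries a Kdm5d signal and mouse 6 does not, and with mice 1 and 5 left out the myeloid progenitor change was 0.92 (adjusted p = 0.432). The difference between populations was -1.06 ± 0.41 and was not called (limma adjusted p = 0.708).

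Kdm6b, the gene of JMJD3, a demethylase known as inducible in macrophages, read 7.11 and 6.83 in WT-labelled LSK mice and 7.51 and 8.55 in KO-labelled ones. Myeloid progenitors gave 6.89 and 6.81 against 6.77 and 6.86. The LSK difference rested mostly on mouse 4, and the change of 1.06 ± 0.29 (2.08-fold, 95% interval 0.40 to 1.72) had a limma adjusted p of 0.0895. Without mouse 4 it was 0.54, and without mouse 2 it was 1.58 and passed the threshold. The myeloid progenitor change was -0.03 ± 0.29 and the difference 1.09 ± 0.41 (limma adjusted p = 0.714).

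None of the 5 COMPASS-type members was called between the genotype labels in either population. Wdr5, Ash2l and Rbbp5 encode the shared core of COMPASS complexes, Men1 encodes menin, which guides the MLL forms, and Setd1a encodes a catalytic subunit. Wdr5 read 11.66 and 11.59 against 11.92 and 12.11 in LSK cells, without overlap, for a change of 0.39 ± 0.20 (limma adjusted p = 0.382). Setd1a read 9.08 in both WT-labelled LSK mice, 9.47 in mouse 2 and 9.45 in mouse 4, for a change of 0.38 ± 0.21 (limma adjusted p = 0.425), and the change of its second probe there was 0.58. In myeloid progenitors these changes were 0.16 and 0.08. In LSK cells and myeloid progenitors, in that order, the change was -0.35 and 0.19 for Ash2l, 0.26 and -0.37 for Rbbp5, and -0.13 and -0.11 for Men1.

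**Figure D3:**
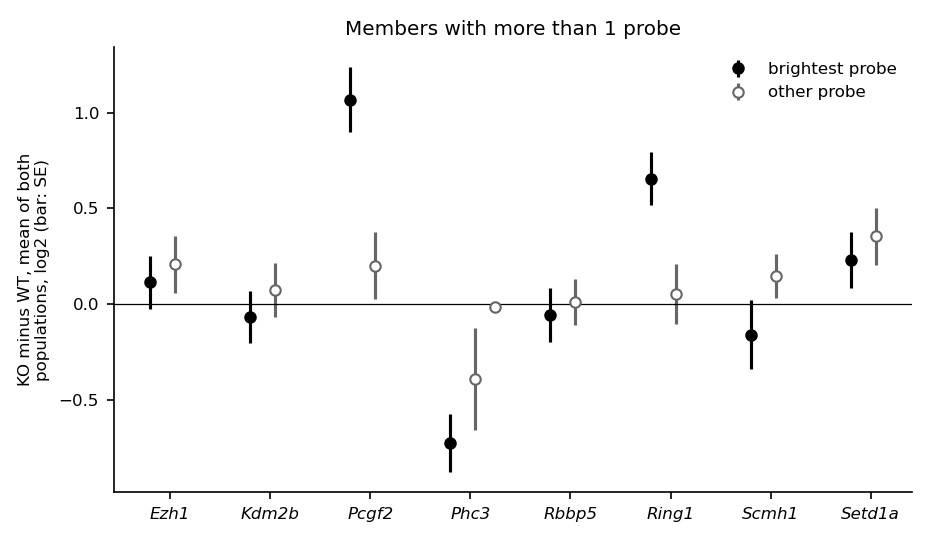
Change between KO-labelled and WT-labelled mice, averaged over both populations and given in log2 units with SE as bars, for the brightest probe (filled) and the other probes (open) of the 8 members that have more than 1. The brightest probes of Pcgf2 and Ring1 stand at 1.07 and 0.66 while their second probes lie at 0.20 and 0.05, and the Phc3 probes lie at -0.73, -0.39 and -0.02.

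In the comparison of populations within WT-labelled mice, the share of members called was near that of all named genes. Nothing is read from their number. Cbx7, Cbx6, Kdm6a, Ezh1 and Ring1 were higher in LSK cells than in myeloid progenitors, so that 5 of 37 members were called against 13.5% of all named genes (8.08% higher in LSK cells). This comparison uses the same WT-labelled mice as the genotype comparisons, so its values are given beside theirs and not correlated with them. The median over the members was 0.09, beside -0.03 over all named genes.

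Cbx7, the chromodomain reader known to favour self-renewal of blood stem cells, read 11.05 and 10.51 in WT-labelled LSK mice and 8.96 and 9.65 in WT-labelled myeloid progenitors. It was higher in LSK cells by 1.48 ± 0.29 (2.78-fold, 95% interval 0.85 to 2.11, limma adjusted p = 0.00692). The KO-labelled group means had the same order, at 11.09 in LSK cells and 9.61 in myeloid progenitors, without overlap between mice. Cbx6, its relative, read 12.82 and 12.77 in LSK mice against 11.08 and 12.02, a difference of 1.25 ± 0.27 (2.37-fold, limma adjusted p = 0.0111). The WT-labelled myeloid progenitor mice lay far apart, and the KO-labelled ones read 11.11 and 11.19 against 12.70 and 12.69 in LSK cells. Both Cbx genes lie on chromosome 15. Without mouse 1 neither call was made, at 1.20 for Cbx7 and 1.22 for Cbx6, and Cbx7 was also lost without mouse 5 (1.13). The Cbx6 difference was 0.77 without mouse 5, where it was still called (limma adjusted p = 0.0471).

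Of the PRC2 methyltransferases, Ezh1 was called between the WT-labelled populations and Ezh2 was not. Ezh1 was higher in WT-labelled LSK cells, where it read 11.32 and 11.09 against 10.24 and 10.19, by 0.99 ± 0.20 (1.98-fold, 95% interval 0.56 to 1.42, limma adjusted p = 0.00777). Its second probe was called in the same direction, at 0.71 ± 0.21 (limma adjusted p = 0.0472). Without mouse 1 the Ezh1 difference was 0.87 and was not called. Ezh2 read 11.39 and 11.53 in WT-labelled LSK cells against 12.34 and 11.79 in myeloid progenitors, a difference of -0.61 ± 0.22 (95% interval -1.09 to -0.13, limma adjusted p = 0.0966) that missed the threshold. It was -0.34 without mouse 5 and -0.27 with mice 1 and 5 left out (adjusted p = 0.736), and it passed at -0.89 without mouse 6 (limma adjusted p = 0.0361). In KO-labelled mice Ezh2 read 11.39 and 11.57 against 12.23 and 12.33, again without overlap. DNA replication and mitosis genes moved alongside: 5 of 23 measured were lower in WT-labelled LSK cells, as were 969 of all 17741 named genes. Ccne1 (-1.98) and Aurkb (-1.30) were among the 5. The part of these DNA replication and mitosis genes in the Ezh1 and Ezh2 differences was not tested.

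Kdm6a and Ring1 were also higher in WT-labelled LSK cells. Kdm6a differed by 1.12 ± 0.29 (2.18-fold, limma adjusted p = 0.0271), while in KO-labelled mice its populations overlapped, at 11.35 and 12.24 against 11.63 and 11.84. Ring1 differed by 0.81 ± 0.20 (1.75-fold, limma adjusted p = 0.0212), and its second probe by -0.20 ± 0.22. With the mean of both probes the Ring1 difference was 0.30 and was not called (limma adjusted p = 0.342). Leaving out mouse 1, 3, 5 or 6 lost both calls, with Kdm6a at 1.32, 0.93, 0.98 and 1.27 and Ring1 at 0.86, 0.76, 0.77 and 0.84. With mice 1 and 5 left out, so that 1 WT-labelled mouse per population remained, none of the 5 was called. The differences were then 0.86 for Cbx7, 0.75 for Cbx6, 1.17 for Kdm6a, 0.90 for Ezh1 and 0.82 for Ring1, with adjusted p-values of 0.154 to 0.238. Next to the threshold from below were Pcgf6 (-0.68 ± 0.21, limma adjusted p = 0.0554) and L3mbtl2 (-0.71 ± 0.24, limma adjusted p = 0.0792), partners in a variant PRC1, both lower in LSK cells by their fitted values.

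**Figure D4:**
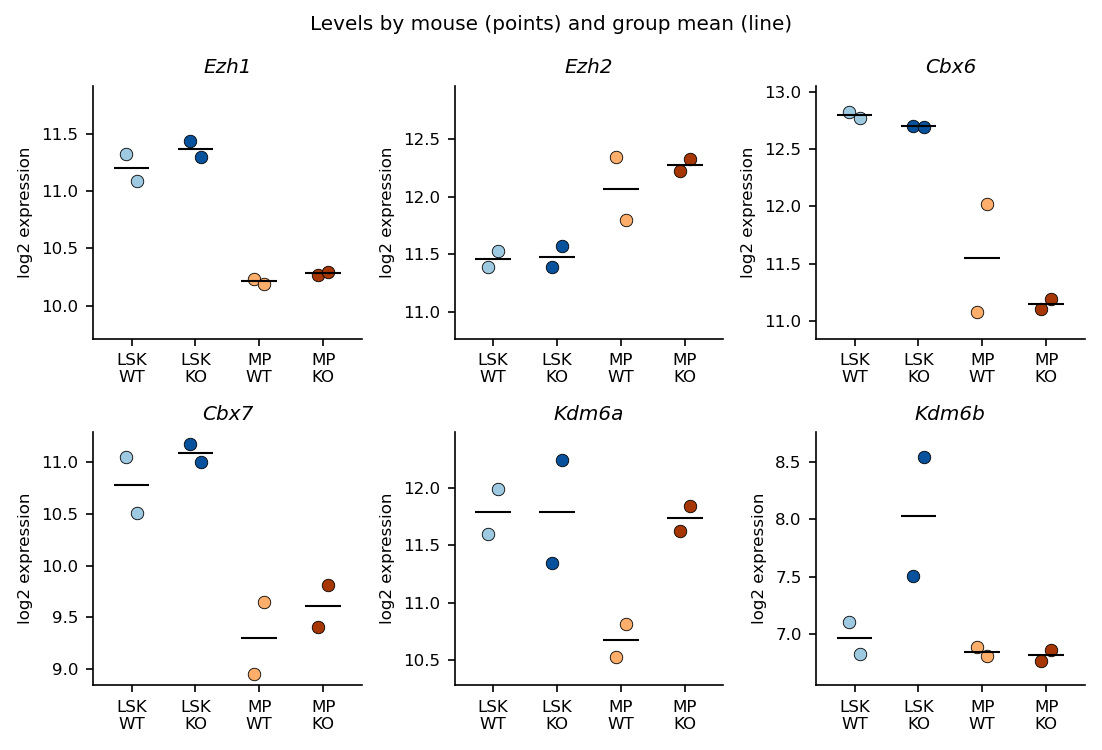
Log2 expression of Ezh1, Ezh2, Cbx6, Cbx7, Kdm6a and Kdm6b in each mouse (points) with group means (lines), for WT-labelled and KO-labelled LSK cells and myeloid progenitors (MP); each panel has its own vertical range, which does not start at 0. Ezh1, Cbx6 and Cbx7 are higher in LSK cells under both genotype labels and Ezh2 is lower, while Kdm6a is lower in WT-labelled myeloid progenitors than in the other groups and Kdm6b is highest in the KO-labelled LSK mice.

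Other genes of the same pathways were also compared between the genotype labels. Of 25 further Polycomb genes measured, 2 rose and 2 fell on average over both populations. That is 4 of 25 (16%) against a background of 7.95%, and the excess was not tested. Epop, whose product joins PRC2 to Elongin BC, rose by 0.80 (limma adjusted p = 0.0149), from 8.72 and 8.44 to 9.70 and 9.19 in LSK cells and from 8.30 and 7.92 to 8.81 and 8.89 in myeloid progenitors. Sfmbt1, an MBT-domain protein, rose by 0.55 (limma adjusted p = 0.0306). Scml2, a Polycomb-associated protein encoded on the X chromosome, fell, with a change of -0.80 (limma adjusted p = 0.0103), from 8.71 and 8.17 to 7.48 and 7.59 in LSK cells and from 8.76 and 8.49 to 8.04 and 7.82 in myeloid progenitors. Its relative Scml4 fell, with a change of -0.36 (limma adjusted p = 0.0412). Scml4 went from 7.42 and 7.17 to 6.80 and 6.77 in LSK cells. In myeloid progenitors it went from 6.65 and 6.42 to 6.31 and 6.35, toward the low end of the array. In LSK cells alone Scml2 fell, at -0.90 (background 4.64%). In each mouse 3 to 6 of these 25 genes read below 6.5. In myeloid progenitors 0 of the 25 passed in limma, against a background of 2.64%. At an unadjusted p under 0.05 there were 3, where 11.4% of all named genes passed. None of 14 further COMPASS and Trithorax genes measured was called in limma in either population (background 4.64% in LSK cells and 2.64% in myeloid progenitors). At an unadjusted p under 0.05 there were 2 in LSK cells and 0 in myeloid progenitors, where 16.6% and 11.4% of all named genes passed. Against the same backgrounds, BAP1 and its partners had 0 of 10 called, 2 at an unadjusted p under 0.05 in LSK cells and 0 in myeloid progenitors. Asxl2 and Asxl3 of these 10, and Kmt2e and Paxip1 of the 14, read below 6.5 in every mouse. The lowest value of the whole table was 5.66, so these probes gave little level to compare. Asxl1, which encodes the cofactor that activates BAP1, read 11.63 and 11.75 against 10.84 and 11.40 in LSK cells (-0.57, limma adjusted p = 0.264).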

How the data were processed

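RNA of sorted bone marrow cells was measured on 24 arrays of 8 mice, grouped by the genotype, population and mouse given in the labels. The deposited values are log2 expression as processed by the authors. Per the submitters' processing notes limma was used, without a version. That arrays had been put on a common log2 scale was judged from the numbers themselves, which ran from 5.66 to 15.93 and, once sorted, differed by at most 0.0451 between arrays. The sources used here give neither the scanner nor the background correction.

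Names of the 22439 probes came from the platform table, and old symbols were replaced using RefSeq genes of GRCm38.p6. A current symbol was found for 18213 probes and a synonym for 2126. The platform's own name stayed for 36, and 2064 had no name. No probe named several genes, and 2277 of 17741 genes had several probes, of which the brightest was used.

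The mean of a mouse's 3 arrays was the replicate. The 8 means entered a limma 3.58.1 fit under R 4.3.3 (eBayes with trend and robust options, 4 residual degrees of freedom, median prior 6.91), with the 4 groups sharing a spread. Two-sided p-values were adjusted by Benjamini-Hochberg over all probes, at a threshold of 0.05. The fit was also run on simulated data as a check of the code. How often it finds changes of the members' size is not given here. Arrays carry no read depth, and the number of mice limits the precision.

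The members and all other lists were chosen with earlier results of these data known. Named in full are members past the threshold in any comparison and Ezh1, Ezh2, Eed, Suz12, Ring1, Rnf2, Bmi1, Kdm6a and Kdm6b, other members by their changes, and up to 4 called genes of each further list. Values of Pcgf6, Wdr5, Setd1a, Phf19 and Asxl1 are given outside this rule, after they were seen. Alternatives were the block, filter, normalization, probe, replicate and Kdm5d settings listed in the closing section.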

Additional observations from a re-analysis of the deposited data

Results flagged for a closer look

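For 2 members the KO-labelled mice lay on opposite sides of the WT-labelled mice in the 2 populations. Pcgf6 lay above in LSK cells (0.42) and below in myeloid progenitors (-0.29), and the difference of 0.71 ± 0.29 (95% interval 0.06 to 1.35) was not called in limma (adjusted p = 0.758). Rbbp5 lay above in LSK cells, at 9.52 and 9.40 against 9.25 and 9.15, and below in myeloid progenitors, at 9.17 and 9.30 against 9.66 and 9.56, with a difference of 0.64 ± 0.28 (limma adjusted p = 0.802). The second Rbbp5 probe had changes of -0.07 and 0.09, of the opposite sign in both populations, with overlapping mice. No search for a single mouse far from its group was possible with 2 mice per group.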

How the results depend on the processing

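The counts of members called (2 in LSK cells, 0 in myeloid progenitors, 4 on average, 0 for the difference and 5 between WT-labelled populations) varied with the fit. With all arrays and the mouse as a random block they were 8, 7, 10, 0 and 9, and with the array number as a further replicate block 7, 6, 10, 0 and 9. The array numbers did not pair the samples: deviations of same-numbered arrays of different mice had a median r of 0.00567 (84 pairs, -0.25 to 0.277), against 0.00488 for other numbers. Fitting the compared groups alone gave 0 in LSK cells and 2 in myeloid progenitors, and cannot give the average or the difference. Probes above the 25th percentile gave 4 and 2, those above the 50th 4 and 3, and plain eBayes (without trend and robust) gave 3 and 2, losing Pcgf2 in LSK cells and Kdm6a between WT-labelled populations. The mean of all probes of a gene gave 1 in LSK cells and 2 on average. Without mice 1 and 5, which carried a Kdm5d signal, the counts were 0 in LSK cells, 1 on average and 0 between WT-labelled populations, and with the Kdm5d value as a covariate 1 in LSK cells and 2 on average. Leaving out a mouse gave 0 to 2 in LSK cells, 0 to 3 in myeloid progenitors, 2 to 6 on average, 0 to 1 for the difference and 0 to 6 between populations. Where a setting leaves 1 mouse in a group, that mouse is assumed to vary like the others. Over all named genes these alternatives called 331 to 2671 in LSK cells (824 as reported), 196 to 1629 in myeloid progenitors (469), 735 to 3196 on average (1410), 0 to 454 for the difference (11) and 617 to 4675 between populations (2403). The causes were not tested.

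No called member changed sign under any alternative run. Uncalled members did in 15 of 35 cases in LSK cells and 20 of 37 in myeloid progenitors. Among Ezh1, Ezh2, Eed, Suz12, Ring1, Rnf2, Bmi1, Cbx6, Cbx7, Kdm6a and Kdm6b, leaving out a mouse turned Ezh2 in LSK cells (-0.073 to 0.11) and in myeloid progenitors (-0.066 to 0.48), Eed (-0.40 to 0.065), Kdm6b (-0.079 to 0.012), Cbx6 (-0.87 to 0.073) and Cbx7 (-0.043 to 0.65) in myeloid progenitors, Suz12 in LSK cells (-0.42 to 0.22) and in myeloid progenitors (-0.23 to 0.54), and Kdm6a in LSK cells (-0.45 to 0.45). Without mice 1 and 5 Ezh2 in LSK cells was -0.049, Eed 0.065, Kdm6b 0.0091 and Cbx7 -0.043 in myeloid progenitors and Kdm6a in LSK cells -0.20. With Kdm5d as a covariate Suz12 in LSK cells was 0.12, Kdm6a -0.15 and Kdm6b in myeloid progenitors 0.058. Centring arrays on their median put Kdm6a in LSK cells at -0.00066 and cyclic loess at -0.011, from 0.00.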

Other observations

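Of 19 measured genes known as classical targets of Polycomb silencing, 5 were higher in WT-labelled LSK cells than in WT-labelled myeloid progenitors (all named genes 8.08%). Among them were Hoxa10 at 2.22, Hoxa5 at 1.81, Hmga2 at 1.55 and Hoxa9 at 1.51 (limma adjusted p of 0.000139 to 0.0117). In each mouse 8 to 10 of the 19 read below 6.5, beside a lowest value of 5.66 in the whole table. Hoxa genes encode transcription factors of stem and progenitor cells. Between genotype labels Hoxa7 alone was called, on average over both populations, where the background was 7.95%. Its change was -0.76 (limma adjusted p = 0.0343), from 12.15 and 11.40 to 11.37 and 11.11 in LSK cells and from 10.40 and 10.74 to 9.47 and 9.70 in myeloid progenitors. In LSK cells and in myeloid progenitors taken alone 0 of 19 passed in limma (backgrounds 4.64% and 2.64%). At an unadjusted p under 0.05 there were 1 and 5, where 16.6% and 11.4% of all named genes passed.

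In each mouse 2 or 3 of 22 measured SWI/SNF remodelling genes read below 6.5. Of the 22, 0 were called between genotype labels in limma (background 4.64% in LSK cells and 2.64% in myeloid progenitors). At an unadjusted p under 0.05 there was 1 in each population, where 16.6% and 11.4% of all named genes passed. Between WT-labelled populations 3 of the 22 were called, near the background of 13.5%. Smarca2, an ATPase of the complex, was higher in LSK cells at 1.21 (limma adjusted p = 0.00406), Smarcd3 was higher at 0.48 and Bcl7a was lower at -0.85. Against the same background, 3 of 25 further Polycomb genes were called, with Scml4 (0.76), Mga (0.69) and Sfmbt2 (0.67) higher in WT-labelled LSK cells. In WT-labelled myeloid progenitors these 3 read 6.22 to 6.77, and Smarcd3 read 6.22 and 6.19, all toward the low end of the array.

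Other cell type markers differed between genotype labels as well. Limma called 4.64% of all named genes in LSK cells, 2.64% in myeloid progenitors and 7.95% on average over both. Of 9 monocyte and macrophage markers 1 rose and 1 fell in LSK cells, 2 fell in myeloid progenitors, and 1 rose and 3 fell on average. Cd68 rose in LSK cells (2.26) and on average (1.51), while Mpeg1 fell in both populations (-1.18 and -1.26) and Adgre1 fell in myeloid progenitors (-0.94). Of 10 stem and progenitor markers, 1 was called in each population: Tek fell in LSK cells (-1.73) and Cd34 in myeloid progenitors (-1.18). Of 8 T and NK cell markers 1 rose and 1 fell in LSK cells, and 0 were called in myeloid progenitors. Of 9 megakaryocyte markers 1 rose and 2 fell in LSK cells, and 2 rose and 1 fell in myeloid progenitors.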
